A study of Mus musculus with 19 samples.

Results

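The genes described here are 10 genes of natural killer (NK) cells and cytotoxic lymphocytes: the receptor genes Klrb1c, Klrd1, Ncr1 and Klrk1, the granule genes Gzma, Gzmb, Prf1 and Nkg7, the chemokine gene Ccl5 and the transcription factor gene Eomes. They were taken by symbol, through the accession that the array design gives each probe, from 33269 genes on the array. The rule that picks the probes uses no measured value, but the set itself was drawn up with earlier results of these data known. The 10 genes had 12 probes, since Klrb1c and Nkg7 had 2 each. Of the 10, 8 had a probe whose lung signal stood well above background on 4 or more arrays, and these 8 were tested among 19319 genes. Klrk1 was well above background on 0 of 19 arrays and Eomes on 1 of 19, so these 2 genes have only an upper bound in these lungs and are given without a test.

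The study measured lung RNA of male mice of the transgenic strain 40.6 (MutaMouse, which carries a reporter gene for scoring mutations) that were 25 weeks old. They received gavage every day for 28 days, and a piece of lung was removed 3 days after the final gavage. The agent was benzo(a)pyrene (BaP), a combustion product and carcinogen that the body turns into DNA-binding metabolites: 5 control mice had the vehicle alone, and 5, 4 and 5 mice had 25, 50 and 75 mg per kg of body weight daily, written below as 25, 50 and 75 mg (the design text gives 5 mice per group). Each mouse was hybridised to its own 2-colour Agilent array, with lung RNA in Cy5 against a commercial RNA pool of 11 mouse cell lines in Cy3, and every value below is a log2 ratio of lung over that pool unless another scale is named.

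NK cells are lymphocytes that kill stressed, infected or transformed cells without prior immunisation, and they share their killing machinery with cytotoxic T cells. Perforin opens the membrane of the target cell and granzymes, which are serine proteases, enter and trigger its death. Whether the cell fires is set by the balance of activating and inhibitory receptors, many of which are C-type lectin-like proteins encoded side by side in the NK gene complex. On the mouse genome Klrd1 and Klrk1 were neighbours on chromosome 6, with 0 protein-coding genes between them, and Klrb1c lay on the same chromosome with 20 protein-coding genes between it and Klrd1. The tissue was a piece of whole lung, so fewer NK or T cells and less RNA per cell cannot be told apart in these values.

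The bases just before the transcription start are shown for Gzma, Gzmb and Prf1, 3 members that varied together between mice. They are also shown for Klrb1c, the member that passed the test at the highest dose, and for Ncr1, which varied least with the others. The windows are the 250 bases before the annotated start, from RefSeq on GRCm38.p6 and written 5′ to 3′ on the gene's own strand: chr6:128788642-128788891 (minus strand) for Klrb1c, chr13:113100982-113101231 (minus strand) for Gzma, chr14:56262335-56262584 (minus strand) for Gzmb, chr10:61297586-61297835 (plus strand) for Prf1 and chr7:4337465-4337714 (plus strand) for Ncr1. Capitals mark the hexamer TGTGGT or, for the other strand, ACCACA, the core that RUNX factors bind.
Klrb1c: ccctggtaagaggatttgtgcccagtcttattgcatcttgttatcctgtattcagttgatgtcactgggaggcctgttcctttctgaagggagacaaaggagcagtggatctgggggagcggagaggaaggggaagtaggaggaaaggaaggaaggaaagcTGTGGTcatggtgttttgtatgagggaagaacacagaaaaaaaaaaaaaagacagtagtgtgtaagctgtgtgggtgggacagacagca
Gzma: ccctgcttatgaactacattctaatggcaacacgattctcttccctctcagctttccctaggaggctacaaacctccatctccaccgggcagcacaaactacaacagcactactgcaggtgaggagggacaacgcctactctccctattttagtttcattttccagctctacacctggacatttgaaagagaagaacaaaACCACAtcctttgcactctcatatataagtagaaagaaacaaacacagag
Gzmb: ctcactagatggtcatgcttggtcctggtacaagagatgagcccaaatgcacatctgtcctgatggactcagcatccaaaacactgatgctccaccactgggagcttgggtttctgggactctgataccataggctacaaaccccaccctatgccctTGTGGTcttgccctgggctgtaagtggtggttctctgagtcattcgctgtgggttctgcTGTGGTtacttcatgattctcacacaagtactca
Prf1: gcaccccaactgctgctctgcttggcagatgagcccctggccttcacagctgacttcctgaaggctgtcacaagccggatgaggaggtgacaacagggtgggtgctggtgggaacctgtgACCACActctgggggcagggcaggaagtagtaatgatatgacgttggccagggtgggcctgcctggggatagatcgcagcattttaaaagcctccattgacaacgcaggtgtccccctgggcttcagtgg
Ncr1: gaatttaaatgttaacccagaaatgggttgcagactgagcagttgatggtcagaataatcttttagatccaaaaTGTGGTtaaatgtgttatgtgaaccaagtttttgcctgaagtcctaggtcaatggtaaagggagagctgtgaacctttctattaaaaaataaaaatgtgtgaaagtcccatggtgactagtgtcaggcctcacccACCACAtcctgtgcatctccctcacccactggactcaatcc
The hexamer started 89 bases before the start of Klrb1c, 50 before that of Gzma, 93 and 34 before that of Gzmb, 130 before that of Prf1 and 176 and 41 before that of Ncr1. A window was at hand for 8 of the 10 genes, all but Ccl5 and Klrd1. The hexamer was in 7 of these 8, the exception being Eomes, and in 14.0% of the 32851 windows of the same length in the table. A T-box hexamer (TCACAC or GTGTGA) was in 3 of the 8, against 12.3% of all windows, and an ETS hexamer (AGGAAG or CTTCCT) in 3 of the 8, against 29.5%. Both strands were searched, matches of different hexamers may share bases, and a match describes these letters only.

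Lung and exposure were checked before the members were read. All 10 lung genes looked at (among them the surfactant genes Sftpc and Sftpb) were well above background on enough arrays to be tested, and the mean log2 ratio of the 10 was between 5.18 and 5.75 in every mouse. All 6 target genes of p53, the transcription factor that DNA damage activates, were higher at 75 mg than in controls, from 1.12 ± 0.14 (SE) for Mdm2 to 3.28 ± 0.23 for Cdkn1a. On each array between 18433 and 25586 of 41174 probes had a lung signal well above background. The median lung intensity was 14.5 to 45.5 units, so most members sat in the dim range. In the pool channel Klrb1c, Gzmb and Klrd1 were well above background on 0 of 19 arrays, and Ncr1, Gzma and Prf1 on 1 of 19. The log2 ratios of these genes thus have a pool signal near background as their denominator. There were 6 slides and 5 scan days, and the scanner software's report marked 4 arrays for evaluation (controls 1 and 3, and mice 12 and 20). The array of control 5 stood apart in 1 respect: the summed lung-channel level of 7 skeletal muscle genes was 124748 units there, against 644 to 1830 in the other controls.

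Of the 8 tested members 2 passed the test against control or in dose order, and both were lower. Klrb1c passed at 75 mg and in the linear trend with dose, and Ccl5 passed in the trend. At 25 mg 0 of the 8 tested members passed (limma, Benjamini-Hochberg adjusted p under 0.05), where 0.0518% of all genes tested did, 0.0104% as lower. At 50 mg 0 passed, where 1.08% of all genes did, 0.336% as lower. At 75 mg 1 of 8 passed, where 4.15% of all genes did, 1.51% as lower, and in the trend 2 of 8, where 4.64% did, 1.83% as lower. The members at an unadjusted p under 0.05 numbered 1, 3 and 5 at the 3 doses and 6 in the trend, all of them lower, where 2.93%, 6.06%, 7.8% and 8.42% of all genes were lower at that p. The differences from control were below 0 for 5, 7 and 8 of the 8 (8 becomes 7 when arrays are only centred on their median, where Nkg7 was at 0.01), while 47.4%, 50.3% and 51.9% of all genes were below 0, and in the trend 8 of the 8 were, with 52.4% of all genes. The median difference of the 8 was -0.05, -0.29 and -0.42 at 25, 50 and 75 mg, and that of all genes lay between -0.01 and 0.01. These counts describe the 8 genes that were bright enough to test, and the 3 comparisons share their control mice. At no dose did all treated mice lie below all control mice for any of the 8 members, which 0.456%, 1.96% and 1.65% of all genes did at 25, 50 and 75 mg.

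**Figure D1:**
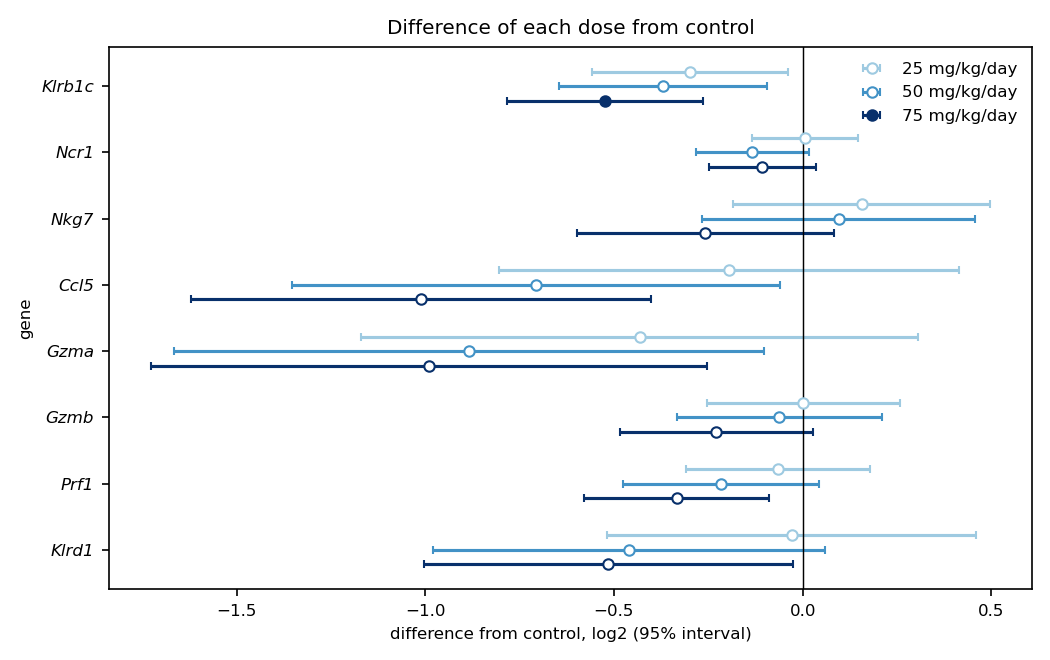
Difference of each dose from control in log2 ratio (horizontal axis) for the 8 tested genes (rows), with 95% intervals from the limma fit over 19 arrays; a filled point passed an adjusted p of 0.05. Klrb1c at 75 mg, at -0.52, is the filled point, and the points at 75 mg run from -1.01 for Ccl5 to -0.11 for Ncr1.

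Of the receptor genes, Klrb1c encodes NK1.1, an activating lectin-like receptor by which NK cells of several mouse strains are recognised. Its log2 ratio was 0.25, 0.55, 0.68, 0.92 and 1.06 in the 5 controls, 0.19, 0.33, 0.43, 0.46 and 0.56 at 25 mg, 0.18, 0.19, 0.46 and 0.47 at 50 mg, and 0.06, 0.08, 0.15, 0.21 and 0.35 at 75 mg. All 5 mice at the highest dose were below the control mean and 4 of the 5 were below the lowest control, control 2, so the groups overlapped in 1 mouse, mouse 20. The group means were 0.69 ± 0.32 in controls (SD, n = 5), 0.39 ± 0.14 (n = 5), 0.32 ± 0.16 (n = 4) and 0.17 ± 0.12 (n = 5) in order of dose. At 75 mg the difference from control was -0.52 ± 0.12 (SE; limma adjusted p = 0.0191), a level 0.695 times that of controls (95% interval 0.581 to 0.832). The trend was -0.16 ± 0.04 for each further 25 mg (limma adjusted p = 0.0145). At 25 and 50 mg the differences were -0.30 ± 0.12 and -0.37 ± 0.13 (limma adjusted p = 0.566 and 0.213).

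The Klrb1c spot was well above background on 5 of 5 control arrays, 4 of 5 at 25 mg, 2 of 4 at 50 mg and 1 of 5 at 75 mg. Values near background are drawn together by the offset of the background correction, and with an offset of 10 in place of 50 the difference at 75 mg was -0.96 (limma adjusted p = 0.0325). The second Klrb1c probe was well above background on 0 of 19 arrays and its difference at 75 mg was 0.04 (-0.09 to 0.18, 95% interval), so it gives no second measurement of the gene. The call at 75 mg was lost without mouse 16 (-0.50, limma adjusted p = 0.0596) or without mouse 19 (-0.50, limma adjusted p = 0.0516), and over all alternatives the adjusted p lay between 0.000338 and 0.0596. Without control 5, whose muscle genes were high, it was -0.47 (limma adjusted p = 0.0468).

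Klrd1 encodes CD94, the partner chain with which some of the NKG2 receptors reach the cell surface. Its probe was well above background on all 19 arrays. Its log2 ratio was 1.41, 1.64, 2.11, 2.37 and 2.49 in controls, 1.41, 1.67, 2.06, 2.27 and 2.46 at 25 mg, 1.06, 1.44, 1.50 and 2.17 at 50 mg, and 1.17, 1.34, 1.53, 1.64 and 1.76 at 75 mg. The controls and the mice at 25 mg covered the same range, and the 5 mice at 75 mg lay in its lower part and beneath it. The difference at 75 mg was -0.52 ± 0.23 (SE, limma adjusted p = 0.26) and did not pass.

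Ncr1 encodes NKp46, an activating receptor that marks NK cells in several mammals, and it was well above background on 6 of 19 arrays. Its log2 ratio ran from 0.11 to 0.35 in controls (median 0.22), from 0.16 to 0.37 at 25 mg (median 0.22), from -0.01 to 0.17 at 50 mg (median 0.14) and from 0.05 to 0.26 at 75 mg (median 0.13). At 75 mg the difference was -0.11 ± 0.07 (SE, limma adjusted p = 0.447), and all 4 groups overlapped. Klrk1 encodes NKG2D, an activating receptor for ligands that stressed cells display. Its probe ratio was 0.16 ± 0.17 in controls, 0.22 ± 0.10 at 25 mg, 0.06 ± 0.15 at 50 mg and 0.03 ± 0.08 at 75 mg (SD, n = 5, 5, 4 and 5), all from spots not well above background.

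Of the effector genes, Gzma encodes granzyme A and had the widest range between mice. Its log2 ratio was 0.89, 1.09, 1.68, 2.31 and 2.68 in controls, 0.83, 1.10, 1.11, 1.43 and 2.02 at 25 mg, -0.02, 0.59, 0.95 and 1.86 at 50 mg, and 0.28, 0.48, 0.73, 0.81 and 1.39 at 75 mg. All 5 mice at 75 mg were below the control mean and 4 of 5 below the lowest control. The difference was -0.99 ± 0.35 (SE, limma adjusted p = 0.133), a level 0.504 times that of controls with a 95% interval of 0.302 to 0.839, and did not pass. At 25 and 50 mg the differences were -0.43 ± 0.35 and -0.88 ± 0.37 (limma adjusted p = 0.817 and 0.317).

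Gzmb encodes granzyme B, the granzyme that cleaves caspases. Its log2 ratio ran from 0.18 to 0.59 in controls, from 0.20 to 0.67 at 25 mg, from 0.12 to 0.72 at 50 mg and from -0.08 to 0.49 at 75 mg, with medians of 0.39, 0.42, 0.28 and 0.10. The difference at 75 mg was -0.23 ± 0.12 (SE, limma adjusted p = 0.353). Prf1 encodes perforin, the pore-forming protein. Its log2 ratio was 0.21, 0.40, 0.63, 0.67 and 0.86 in controls, 0.32, 0.43, 0.43, 0.59 and 0.67 at 25 mg, 0.11, 0.28, 0.45 and 0.51 at 50 mg, and 0.00, 0.13, 0.24, 0.27 and 0.45 at 75 mg. The medians were 0.63, 0.43, 0.36 and 0.24 in order of dose and the ranges overlapped, and the difference at 75 mg was -0.33 ± 0.12 (SE, limma adjusted p = 0.124).

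Nkg7 encodes a membrane protein of the cytotoxic granule that takes part in its release. The brighter of its 2 probes, on all 19 arrays well above background, gave 1.66 to 2.26 in controls (median 1.73), 1.65 to 2.29 at 25 mg (median 2.20), 1.73 to 2.43 at 50 mg (median 1.92) and 1.36 to 1.93 at 75 mg (median 1.66). Its differences were above 0 at the lower doses, at 0.16 ± 0.16 and 0.10 ± 0.17, and -0.26 ± 0.16 at 75 mg (SE, limma adjusted p = 0.872, 0.879 and 0.447). The other probe gave -0.02, -0.11 and -0.27 at the 3 doses, so the probes had opposite signs at 25 and 50 mg and came to nearly the same value at 75 mg.

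Ccl5 encodes a chemokine that draws T cells and monocytes and is stored by cytotoxic lymphocytes. It was the member that the reference pool also expressed well (468 to 1118 intensity units), so its log2 ratio was negative in every mouse. It was -0.91, -0.89, -0.85, -0.61 and -0.25 in controls, -1.24, -1.13, -1.11, -0.61 and -0.40 at 25 mg, -2.24, -1.58, -1.31 and -0.50 at 50 mg, and -2.28, -2.02, -1.92, -1.63 and -0.70 at 75 mg. At the highest dose 4 of 5 mice were below every control and mouse 20 was within the control range; at 50 mg 3 of 4 were below every control and mouse 13 was within it. The trend was -0.35 ± 0.09 for each further 25 mg (SE, limma adjusted p = 0.0229), and the difference at 75 mg was -1.01 ± 0.29 (limma adjusted p = 0.0556), a level 0.496 times that of controls with a 95% interval of 0.325 to 0.757. The trend call was lost without control 3 (-0.33, limma adjusted p = 0.0533), mouse 16 (-0.31, adjusted p = 0.0701) or mouse 18 (-0.33, adjusted p = 0.0622), and over all alternatives the adjusted p of the trend lay between 0.00282 and 0.269, the highest being with median centring in place of loess (-0.17). The call at 75 mg was gained without mouse 20 (-1.26, limma adjusted p = 0.00789). It was also gained without mouse 13 (limma adjusted p = 0.0313) or mouse 15 (0.0374). Both are mice at 50 mg, so the difference stayed at -1.01 and only its spread changed. The adjusted p at 75 mg ranged over all alternatives from 0.00789 to 0.398.

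Eomes encodes a T-box transcription factor that NK cells need to mature. Its probe ratio was 0.10 ± 0.16 in controls, 0.08 ± 0.05 at 25 mg, 0.15 ± 0.19 at 50 mg and 0.01 ± 0.08 at 75 mg (SD, n = 5, 5, 4 and 5). The array on which it was well above background was that of mouse 20, where its pool signal was well above background too. With Ncr1 dim and Klrk1 and Eomes not above background, 4 of the 10 genes (Nkg7, Ccl5, Klrd1 and Gzma) had a spot well above background on 18 or 19 of the 19 arrays. Of these, Nkg7, Ccl5 and Gzma are also expressed by cytotoxic T cells, so the set does not by itself stand for NK cells.

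**Figure D2:**
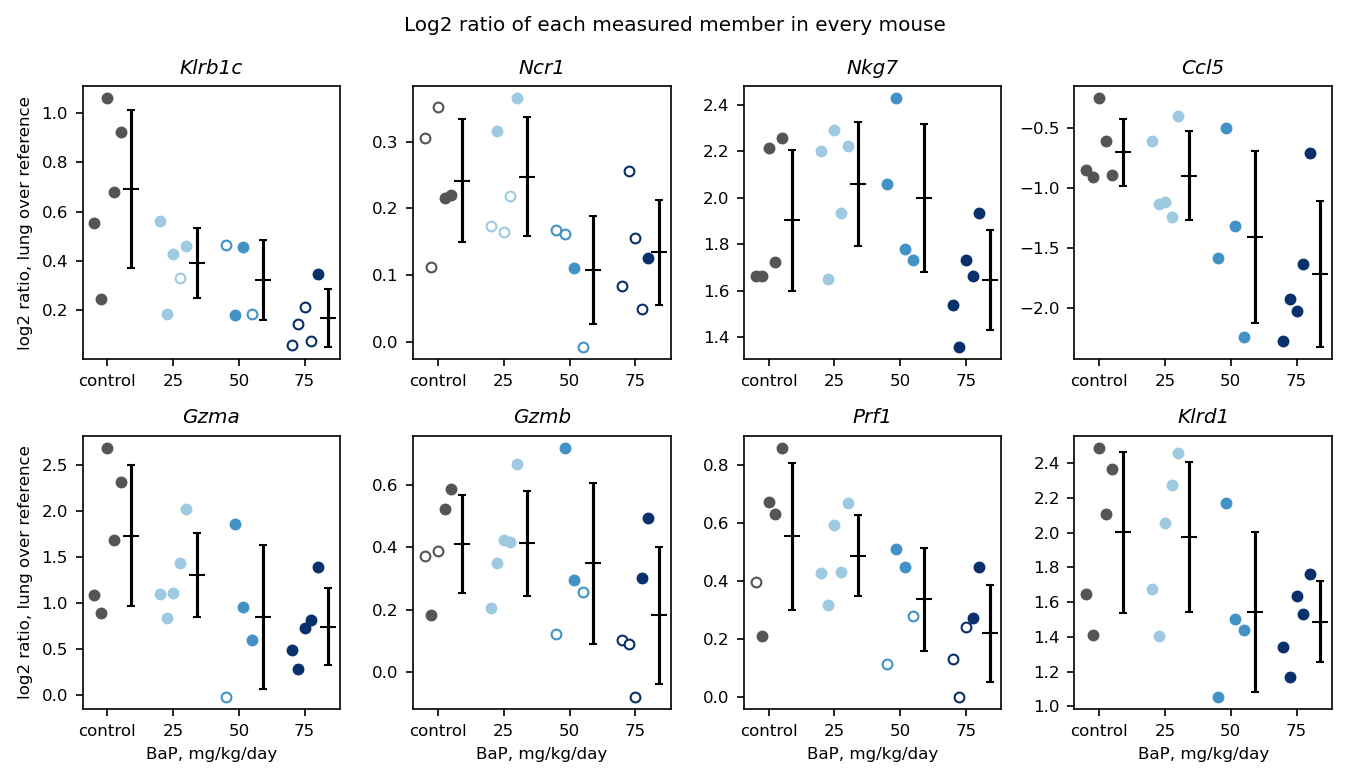
Log2 ratio of lung over the reference pool (vertical axis, own scale in each panel) in every mouse, by dose of BaP in mg/kg/day, for the 8 tested genes. A filled point was well above background in the lung channel, an open point was not, and the bars are the group mean and SD. The group means of Klrb1c, Ccl5, Gzma, Prf1 and Klrd1 descend in order of dose. Mouse 20 is the highest point at 75 mg in 7 of the 8 panels.

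The treated groups were also set against each other, a comparison without the controls. At 75 against 25 mg 0 of 8 members passed (0.549% of all genes did, 0.166% as lower), and all 8 differences were below 0, with a median of -0.34 against -0.01 for all genes. Those with an unadjusted p under 0.05 (3.3% of all genes were lower at that p) were Ccl5 at -0.82 ± 0.29, Nkg7 at -0.41 ± 0.16 and Prf1 at -0.27 ± 0.12 (SE, limma adjusted p = 0.421, 0.546 and 0.656). Between neighbouring doses 0 of 8 members passed, where 0.0104% of all genes did from 25 to 50 mg and 0% from 50 to 75 mg, and 0 had an unadjusted p under 0.05 in either step, where 2.21% and 2.13% of all genes were lower at that p. No single member separated neighbouring doses.

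Each slide held up to 4 mice, and 4 slides held both a mouse at 75 mg and a control. Within these slides Klrb1c was lower at 75 mg on 4 of 4, by 0.17 to 0.91, and Ncr1 on 4 of 4, by 0.06 to 0.18. Ccl5 and Gzma were lower on 3 of 4, Gzmb, Prf1 and Klrd1 on 2 of 4 and Nkg7 on 1 of 4. The Ncr1 spot was well above background on 1 of 5 arrays at 75 mg. No share of all genes was computed for these slide counts, so they have no background beside them. The exception for Ccl5 and Gzma was slide 5, where mouse 20 stood at -0.70 for Ccl5 against -0.85 in control 1, and at 1.39 for Gzma against 1.09. On slide 2, where mouse 17 stood beside control 3, the differences of these 2 genes were the widest of the 4 slides, at -2.40 for Gzma and -1.67 for Ccl5. With slide as a block in the fit all 8 differences at 75 mg stayed below 0, and Klrb1c was at -0.50 (limma adjusted p = 0.0209).

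**Figure D3:**
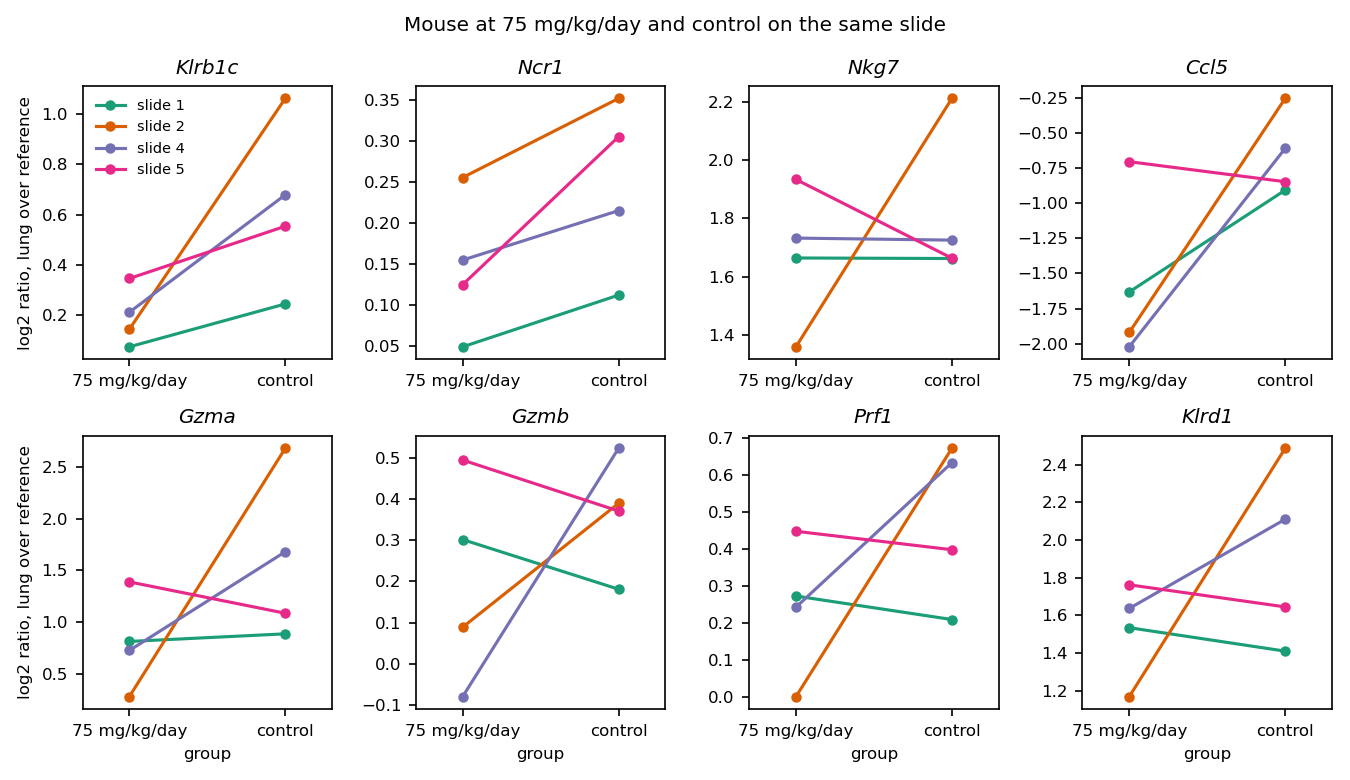
Log2 ratio (vertical axis) of the mouse at 75 mg (left) and of the control (right) hybridised on the same slide, for the 8 tested genes and the 4 slides that held both. All 4 lines rise to the right for Klrb1c and Ncr1, and the line of slide 5 falls for the other 6 genes.

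The Cy5 signal was also read without the reference pool. On the lung channel alone 3 members were lower at 75 mg, where 2.87% of all genes passed, 0.6% as lower: Klrb1c at -0.54 ± 0.10, Gzma at -1.02 ± 0.26 and Klrd1 at -0.68 ± 0.15 (SE, limma adjusted p = 0.00563, 0.0408 and 0.0191). Over all alternatives the adjusted p at 75 mg ranged from 0.0113 to 0.273 for Gzma and from 0.0177 to 0.424 for Klrd1. In the trend 7 members were lower on the lung channel, all but Ncr1, where 3.6% of all genes passed, 1.1% as lower. In the reference channel, which held the same RNA on every array, 0 members passed and the differences at 75 mg lay between -0.16 for Nkg7 and 0.11 for Ncr1. For Nkg7 the lung channel gave -0.52 ± 0.15 and the ratio -0.26 ± 0.16. For Ncr1 the lung channel gave -0.06 ± 0.08, the reference channel 0.11 ± 0.05 and the ratio -0.11 ± 0.07. The ratio of Ncr1 thus held a shift of the pool signal as well as of the lung signal.

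Mice of the same dose also differed from each other, and most members did so together. Group means were removed and the 28 pairs of the 8 members were correlated over the 19 mice, with two-sided permutation within groups (100000 resamples) and adjustment over the 28 pairs. All 28 Pearson coefficients were above 0, with a median of 0.56, and 14 had an adjusted permutation p under 0.05 by Pearson and 9 by Spearman. No such share was computed for other gene pairs on these arrays, so the counts have no background beside them. The tightest pair was Gzma and Klrd1, with r = 0.94 and rho = 0.95 (adjusted permutation p = 0.00014 for both; raw p = 1e-05, the smallest these permutations can give), and r was 0.92 without the 2 mice farthest from the median. Gzma and Prf1 had r = 0.87 and rho = 0.91 (adjusted permutation p = 0.00065 and 0.00014; r = 0.92 without the 2 farthest), and Prf1 and Klrd1 r = 0.87 and rho = 0.89 (0.00014 and 0.00019; r = 0.85). Gzma and Gzmb had r = 0.76 and rho = 0.74 (adjusted permutation p = 0.00403 and 0.00582; r = 0.79).

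With slide means removed as well, the coefficient was 0.95 for Gzma and Klrd1, 0.87 for Gzma and Prf1 and 0.87 for Prf1 and Klrd1. Ncr1 was apart: its 7 coefficients lay between 0.08 and 0.36 and 0 passed, and with slide means removed they ran from -0.30 to 0.01. Klrb1c, the member that passed the test against control at the highest dose, passed here with Nkg7 alone (r = 0.59, adjusted permutation p = 0.0412, and rho = 0.60, adjusted permutation p = 0.0523). Its coefficients with Gzma and Klrd1 fell to 0.23 and 0.19 without the 2 farthest mice. All pairs are read from the same arrays and share their normalisation, and Ncr1, Gzmb, Klrb1c and Prf1 are dim. The permutation did not take slide into account, and the coefficients with slide means removed were not tested.

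**Figure D4:**
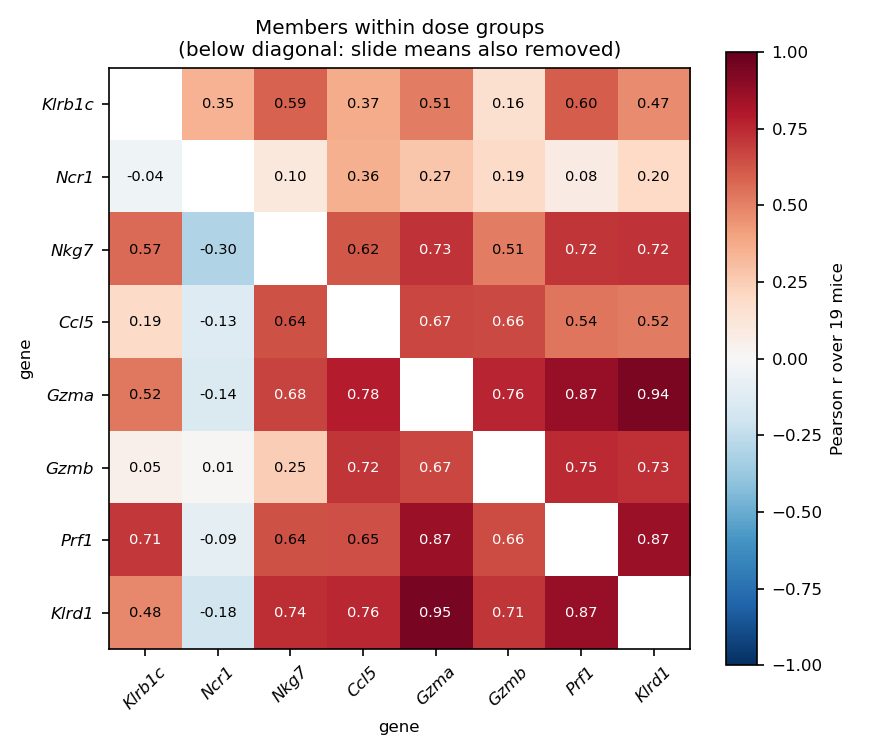
Pearson r between members over 19 mice with group means removed (above the diagonal) and with slide means removed too (below the diagonal); the colour scale runs from -1 to 1. The darkest cell above the diagonal is that of Gzma and Klrd1, at 0.94, and the cells of Ncr1 are pale there, at 0.08 to 0.36.

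The genes most like each member over the 19 arrays were looked for among 12309 genes with a symbol, by Pearson r of the log2 ratio and without a test. Several were other genes of lymphocyte receptors: Klrd1 and Nkg7 were both most like Il2rb, the receptor chain through which interleukin 15 signals (r = 0.86 and 0.75), and Prf1 was most like Klrg1, an inhibitory lectin-like receptor (r = 0.88). Klrb1c was like Klra7 (r = 0.82) behind Krtap19-1, a keratin-associated gene (r = 0.85), and Ccl5 was like Phactr3 (r = 0.79) and Klra7 (r = 0.78). Gzma was most like Tbx21, which encodes the T-box factor T-bet (r = 0.83). Klrd1 was also like Ctsw, a protease gene of cytotoxic cells (r = 0.83), Nkg7 like Klra16 (r = 0.71), Prf1 like Lrig3 (r = 0.81) and Gzmb like Ndrg2 and Mycbp (r = 0.75 each). These coefficients include differences between doses; the arrays share the reference pool and slides.

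Of 27 other NK receptor genes 23 had a probe and 8 could be tested. At 75 mg 1 of the 8 passed as lower, where 1.51% of all genes did. In the trend 2 of the 8 did, where 1.83% of all genes did. Klra7, a receptor of the Ly49 family, which binds MHC class I, was lower at 75 mg by the fit (-0.57 ± 0.15 (SE), limma adjusted p = 0.0362) and in the trend (-0.20 ± 0.05 for each further 25 mg, 0.0154). Klrg1 was lower in the trend (-0.13 ± 0.03, limma adjusted p = 0.0413) and at -0.36 ± 0.11 at 75 mg (limma adjusted p = 0.083). The other 6 did not pass in any comparison, and the 8 had a median of -0.06 at 75 mg, 4 of them below 0. Probes of the Ly49 family can bind transcripts of near-identical family members, so a value belongs to the probe rather than to Klra7 alone.

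Of 18 other effector and granule genes 13 were tested, 0 were lower at any dose and 1 was higher, where 0.745% of all genes were higher at 50 mg and 2.64% at 75 mg. Tnfsf10, which encodes the death ligand TRAIL, was higher by 0.77 ± 0.17 at 50 mg and 0.77 ± 0.16 at 75 mg (SE, limma adjusted p = 0.0292 and 0.00729). The differences of the 13 at 75 mg ran from -0.51 to 0.77, with a median of 0.09 and 5 below 0. At an unadjusted limma p under 0.05, 2 were lower and 2 higher, where 7.8% of all genes were lower and 1831 of 19319 were higher. The list was far brighter than the members: its summed lung-channel level was 9954 to 16112 units in controls, against 1352 to 1889 for the 8 tested members. Of 26 receptor-signalling and transcription factor genes 22 were tested; Prdm1, which encodes the repressor BLIMP-1, was higher at 75 mg (0.65 ± 0.14, limma adjusted p = 0.0112), and 0 were lower. Tbx21 was at -0.85 ± 0.33 (limma adjusted p = 0.174), and the median of the 22 was -0.07. Of 15 genes for cytokines, chemokines and ligands that act on NK cells 7 were tested and 0 passed; the smallest p values were those of Il15 (0.21 ± 0.08, limma adjusted p = 0.152) and Cx3cl1 (-0.15 ± 0.12, limma adjusted p = 0.556).

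Genes of other leukocytes were read beside the members at 75 mg. Of 18 tested T cell genes 0 passed, 17 were below 0 and the median was -0.15, with Cd5 at -0.44 ± 0.14 and Thy1 at -0.36 ± 0.13 (SE, limma adjusted p = 0.097 and 0.148). Their summed lung-channel level was 3119 to 3462 units at 75 mg, against 3672 to 3857 units in controls. Of 13 tested B cell genes 3 were lower (Cd79b, Blnk and Tnfrsf13c), where 1.51% of all genes were, and the median was -0.23; the summed level was 3986 to 5515 units at 75 mg, against 6167 to 7280 units in controls. Of 8 genes that all leukocytes share, such as Ptprc, which encodes CD45, 0 passed, 7 were below 0 and the median was -0.18, with summed levels of 7677 to 9604 units at 75 mg, against 9183 to 12496 units in controls. The summed level of the 8 tested members was 827 to 1406 units at 75 mg, against 1352 to 1889 units in controls. The part of these cell types in the members' values was not tested. The CD8 genes Cd8a and Cd8b1 were not analysed here, since 0 of the 2 matched a probe.

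Markers of other cells did not go one way. Of 7 tested neutrophil genes Csf3r was higher at 75 mg (0.51 ± 0.13 (SE), limma adjusted p = 0.0251), where 2.64% of all genes were. The median of the 7 was 0.39. Of 7 macrophage genes 0 passed at 75 mg. In the trend (2.82% of all genes higher, 1.83% lower) Marco was higher (0.62 ± 0.16 for each further 25 mg, limma adjusted p = 0.0319) and Chil3 lower (-0.47 ± 0.13, limma adjusted p = 0.0412). Of 5 mast cell and basophil genes and 5 red cell genes 0 passed, with medians of -0.23 and 0.09 at 75 mg. Among the 10 lung genes Pecam1, an endothelial gene, was higher in the trend (limma adjusted p = 0.0429) and 0 passed at 75 mg. Of 7 skeletal muscle genes 0 passed, with a median of -1.52 with control 5 in the fit; without that mouse 808 genes passed at 75 mg in place of 801.

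**Figure D5:**
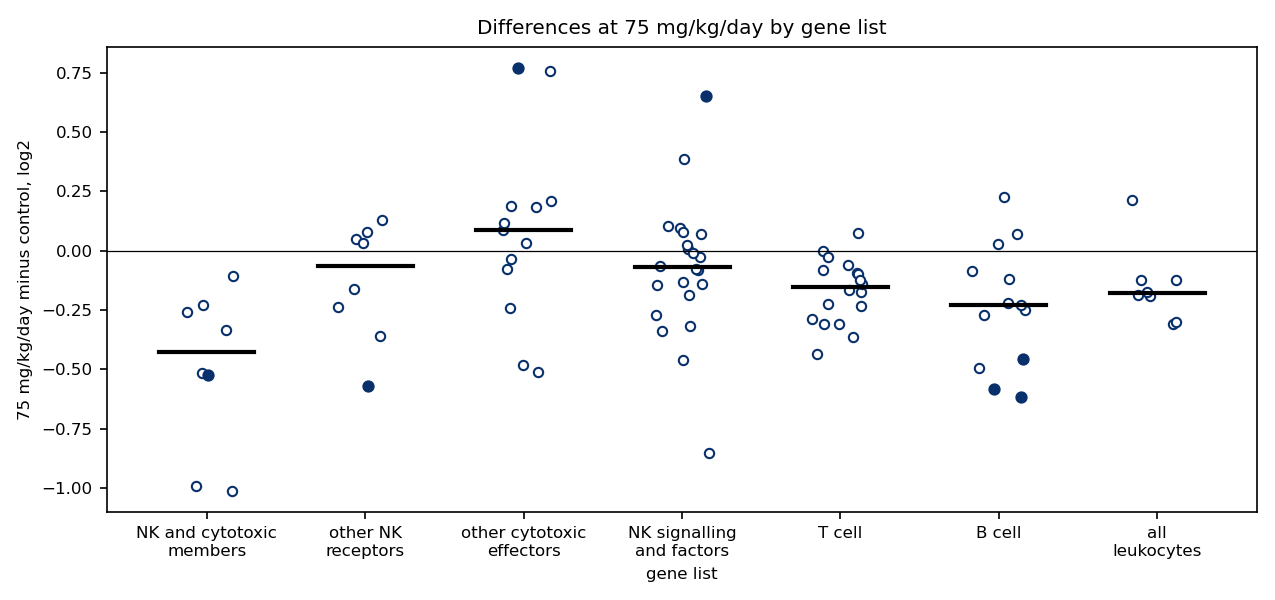
Difference from control at 75 mg in log2 ratio (vertical axis) of every tested gene in 7 gene lists (horizontal axis); a filled point passed an adjusted p of 0.05 and the bar is the median of the list. The members' bar is at -0.42, those of the T cell, B cell and all-leukocyte genes at -0.15, -0.23 and -0.18, and that of the other effectors at 0.09.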

How the data were processed

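Lung RNA of 19 mice was measured on 2-colour Agilent arrays, 1 per mouse, with lung in Cy5 and the reference pool in Cy3 and no dye swap, per the labels. Per the file headers, the deposited scanner files of Feature Extraction 10.7.3.1 give an intensity for each of 45018 spots; the median intensity of the spot and of its local background was used in both channels. The authors also deposited log2 ratios of lung to pool; scale and direction were found from the scanner values (r 0.995 to 0.998), with no statement of the centring.

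Intensities went through normexp (offset 50) and arrays were normalized by loess in limma 3.58.1 (R 4.3.3), with control spots at weight 0 and outlier spots (0.290%) left out; saturation affected 0 spots. Repeat spots were averaged by probe. Summed lung-channel levels add the lung signals of a list's genes after normexp and quantile normalization across arrays, so they include the offset of 50. They are not on the scale of the median lung intensity or of the pool intensity of Ccl5. A probe was kept if its lung signal was well above background on 4 or more arrays (24505 probes), and the brightest such probe on average stood for its gene: 19319 genes, of which 12328 have a symbol. Symbols came from a table of RefSeq genes of GRCm38.p6 by unversioned accession (23374 of 41174 probes, 56.8%). Groups were fitted as 4 means over 19 arrays, and dose as a number for the trend; p values were adjusted over all genes tested, with 0.05 as threshold, and measure the spread between mice. The steps were tested on simulated data. Correlations used Python 3.11.15 with numpy 2.4.6. The number of arrays and the dim signal limit the precision, and the offset understates folds of dim genes.

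All 10 members are named; of each other list, genes past the threshold in any comparison with control or the trend are named, and in lists with none the 2 with the smallest p at 75 mg/kg/day where given; for each member well above background on at least 10 arrays, the 2 genes of highest r are named, except 1 gene that is not reported here. The members and lists were chosen with earlier results of these data known. Alternatives were the background correction, processed intensities, median centring, Aquantile, the lung channel alone, the filter, the mean of probes, slide or scan day as a block, leaving out the 4 arrays marked for evaluation, the authors' deposited log2 table, and leaving out each mouse.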

Additional observations from a re-analysis of the deposited data

Results flagged for a closer look

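Among 92 groups of 4 or 5 mice looked at (the 8 members and the summed levels of each gene list), 4 held a mouse farther from the others than Dixon's 95% critical value, where chance alone gives about 1 in 20. The summed lung-channel level of the 8 tested members was 1406 units in mouse 20 at 75 mg, and the next highest of that group was 995 units. Its array, marked for evaluation, also had the highest median intensity in the pool channel, 46 units against 27 to 35.5 on the other arrays. The summed level of the T cell genes was 3060 units in mouse 15 at 50 mg, where the next lowest was 3646 units. The summed level of the skeletal muscle genes was 124748 units in control 5 (next 1830 units) and 3554 units in mouse 13 at 50 mg (next 915 units). These 2 mice shared slide 6. The cause was not tested.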

How the results depend on the processing

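No paired analysis was possible because no mouse number occurs in more than 1 group; mice that shared a slide were compared with slide as a block. In the 13 alternatives that keep all groups and the 19 that leave out a mouse, 0 members passed at 25 or 50 mg. At 75 mg, where 1 member passed, processed intensities gave 5 (2.46% of all genes were lower), the lung channel alone 3 (0.6%), the authors' deposited log2 ratios 2 (1.06%) and leaving out the arrays marked for evaluation 2 (2.03%); leaving out a mouse gave 0 to 2, with 0 without mouse 16 or mouse 19 and 2 without mouse 13, mouse 15 or mouse 20. In the trend, where 2 passed, no background subtraction gave 4 (1.96%), processed intensities 6 (3.19%), the lung channel alone 7 (1.1%) and the authors' deposited log2 ratios 4 (1.4%); leaving out a mouse gave 1 to 4, with 1 without control 3, mouse 16 or mouse 18 and 4 without mouse 20. At 75 against 25 mg processed intensities gave 1 in place of 0. Klrb1c passed at 75 mg under 30 of 32 alternatives and in the trend under 32 of 32, and Ccl5 in the trend under 28 of 32. These alternatives are not independent. The filter and the mean of probes leave the ratios of Klrb1c and Ccl5 as they are. Leaving out a mouse at 25 or 50 mg leaves a difference at 75 mg as it is and changes only its spread. Median centring moved the median of all genes at 75 mg to 0.35, and relative to it every member was below; Nkg7 was at 0.01 there and Ccl5 at -0.41 (limma adjusted p = 0.398). Aquantile leaves ratios as they are by construction. Over all genes, the counts past the threshold were 10, 209, 801, 106 and 897 at 25, 50 and 75 mg, in 75 against 25 mg and in the trend, against 3 to 13, 75 to 214, 448 to 978, 47 to 118 and 586 to 1039 when a mouse was left out, and 0 to 36, 9 to 406, 511 to 1768, 12 to 293 and 649 to 1739 under the other alternatives. Processed intensities put Klrb1c at -2.30 at 75 mg. The causes of these shifts were not tested. Signal over background limits Klrb1c, Ncr1, Gzmb and Prf1 most.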
